A study of Mus musculus with 7 samples.

Results

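The 7 mouse sirtuin genes, Sirt1 to Sirt7, were examined for chromatin accessibility in liver tissue of young and aged mice. ATAC-seq, in which the Tn5 transposase cuts and tags open DNA, had been run on 3 young samples (3 months) and 4 aged samples (18 months) of strain C57BL/6N. The animals carried no genetic change and had received no treatment, and the mice of the study were male. The design text of the series counts 3 aged animals, with different lobules of 1 liver taken as separate replicates, without naming those samples, whereas the methods count each aged sample as a biological replicate. The p-values below therefore measure the spread between samples. A region was assigned to a sirtuin gene when it overlapped the gene as annotated by GENCODE, or 10 kb on either side of it. This rule gave 27 of the 55680 counted regions, and 8 of the 27 lay at a sirtuin promoter, defined as TSS ± 200 bp, out of 15422 promoter regions in all. Sirt1 had 6 regions, Sirt3 had 5, Sirt5 and Sirt7 had 4 each, Sirt2 and Sirt4 had 3 each, and Sirt6 had 2. A search for near-identical copies of the 27 regions found 0 elsewhere.

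Sirtuins are enzymes that remove acetyl and other acyl groups from lysines of proteins and use up NAD in doing so, which ties them to the metabolic state of the cell. SIRT1, SIRT6 and SIRT7 act mainly in the nucleus, on histones and transcription factors, SIRT2 acts mainly in the cytosol, and SIRT3, SIRT4 and SIRT5 act in mitochondria. In liver they are known for their roles in gluconeogenesis, fatty acid oxidation, ketogenesis and the urea cycle. Accessibility was measured here, and RNA or protein of these genes was not.

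The sequences just before the start sites are shown first, because the promoters of this family differ in base composition and in the letters they hold. Each run gives the bases that precede the RefSeq start of the gene, 5′ to 3′ on the strand of the gene, in build GRCm38.p6, and stops where another gene begins. Capitals mark the GC box (GGGCGG), the E-box (CACGTG), the ETS site (CCGGAAG) and the NRF1 core (CGCATGCG), searched on both strands. The runs lie at chr10:63339036-63339185 (minus strand) for Sirt1, chr7:28766645-28766751 (plus) for Sirt2, chr7:140882310-140882393 (minus) for Sirt3, chr10:81627567-81627716 (minus) for Sirt6 and chr11:120625015-120625116 (minus) for Sirt7.
Sirt1: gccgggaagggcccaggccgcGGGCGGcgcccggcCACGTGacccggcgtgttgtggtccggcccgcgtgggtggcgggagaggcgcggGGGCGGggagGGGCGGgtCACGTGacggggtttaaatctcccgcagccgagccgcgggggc
Sirt2: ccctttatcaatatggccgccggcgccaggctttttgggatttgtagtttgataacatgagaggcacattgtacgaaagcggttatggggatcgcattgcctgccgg
Sirt3: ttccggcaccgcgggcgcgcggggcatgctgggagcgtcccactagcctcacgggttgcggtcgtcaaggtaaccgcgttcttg
Sirt6: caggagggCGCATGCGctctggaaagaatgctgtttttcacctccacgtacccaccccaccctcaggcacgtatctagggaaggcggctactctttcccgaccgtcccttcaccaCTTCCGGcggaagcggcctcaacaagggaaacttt
Sirt7: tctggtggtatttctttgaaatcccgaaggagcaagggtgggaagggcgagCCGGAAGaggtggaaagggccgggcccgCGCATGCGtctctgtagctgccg

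In the 300 bases from 250 before to 50 after the start, the Sirt1 promoter had a GC content of 79.0%, at the 98.3th percentile of 21263 RefSeq promoters, and held 47 CpG dinucleotides. The other members ranged from the 30.4th percentile in Sirt2 to the 68.2th in Sirt5. Sirt1 carried 7 GC boxes, of which a pair overlap each other, and was the only member with the E-box, which it held at 2 places and which 7.84% of all promoters hold. The NRF1 core, a site of a regulator of genes for mitochondrial proteins, was found in Sirt6 and Sirt7 and in 2.52% of all promoters. The ETS site was found in Sirt3, Sirt6 and Sirt7 (11.6% of all), the GC box in Sirt1, Sirt2, Sirt5 and Sirt7 (46.2% of all), and the CCAAT box (CCAAT) in Sirt2 and Sirt5 (38.2% of all). The letters of the TATA box (TATAAA), the FOXO site (TGTTTAC), the cAMP response element (TGACGTCA), the AP-1 site (TGANTCA), the octamer (ATTTGCAT) and the YY1 site (AAGATGGC) were in none of the 7 windows, nor were those of the CEBP site (TTGCGCAA) or of the HNF4 half-site (CAAAGTCC). These are matches of letters and not measured binding.

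Sirt2 and Sirt3 each share a promoter with a gene that runs the other way. The start of Sirt2 lies 108 bp from that of Nfkbib, which encodes an inhibitor of NF-kappaB, and the start of Sirt3 lies 85 bp from that of Psmd13, which encodes a proteasome subunit. A single counted region covers both starts in either case, so its reads cannot be divided between the neighbours.

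Total counts in regions ranged from 5709327 to 25461110 per young sample and from 4474652 to 11717992 per aged sample. The median count per region was 56 to 241 in young and 35 to 96 in aged samples, so depth was not balanced between the ages. Values per sample are given as CPM (TMM-scaled counts relative to the library total) and differences as log2 fold changes of aged over young samples with their standard error (SE) from edgeR's quasi-likelihood test, adjusted by the Benjamini-Hochberg method over all 55680 regions. Promoters of all 8 hepatocyte marker genes were in a region. Of the other marker lists, 1 of 7 Kupffer cell, 5 of 7 sinusoidal endothelial, 2 of 5 stellate, 3 of 5 cholangiocyte and 0 of 7 lymphocyte promoters were. Summed promoter CPM of the hepatocyte list was 704 to 800 in young and 862 to 1001 in aged samples, that of the stellate list (Lrat and Reln) was 20.9 to 24.0 and 11.9 to 19.0, and the sums of the Kupffer, endothelial and cholangiocyte lists overlapped between the ages. Single promoters weigh heavily in these sums. Mean CPM of Reln went from 18.7 to 11.7, that of Lrat from 3.46 to 2.93 with overlapping samples, and that of the hepatocyte gene Apoa1 from 187 to 271. All aged samples were higher at 2 of the 8 hepatocyte promoters, beside 3130 of 13018 protein-coding promoters. The part of cell composition in the results below was not tested, and in bulk tissue fewer cells with an open region and less accessibility per cell cannot be told apart.

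Accessibility per length ranged from 12.3 to 47.1 CPM per kb among the 7 promoters. Over the 7 samples, the Sirt1 promoter had the highest level with 47.1 ± 6.13 CPM per kb (SD, n = 7), followed by Sirt7 with 42.3 ± 5.97, Sirt2 with 39.8 ± 7.94 and Sirt4 with 35.5 ± 5.37. Sirt3 had 27.7 ± 2.81, Sirt5 had 23.2 ± 3.06 and Sirt6 had 12.3 ± 1.70 CPM per kb. Neighbours in this order overlapped in their ranges, except that all samples of Sirt5 (19.0 to 28.7) lay above all samples of Sirt6 (10.8 to 14.7). The promoter of Sirt6, a histone deacetylase that acts in DNA repair and in restraint of glycolysis, was thus the least accessible of the family in every sample.

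**Figure D1:**
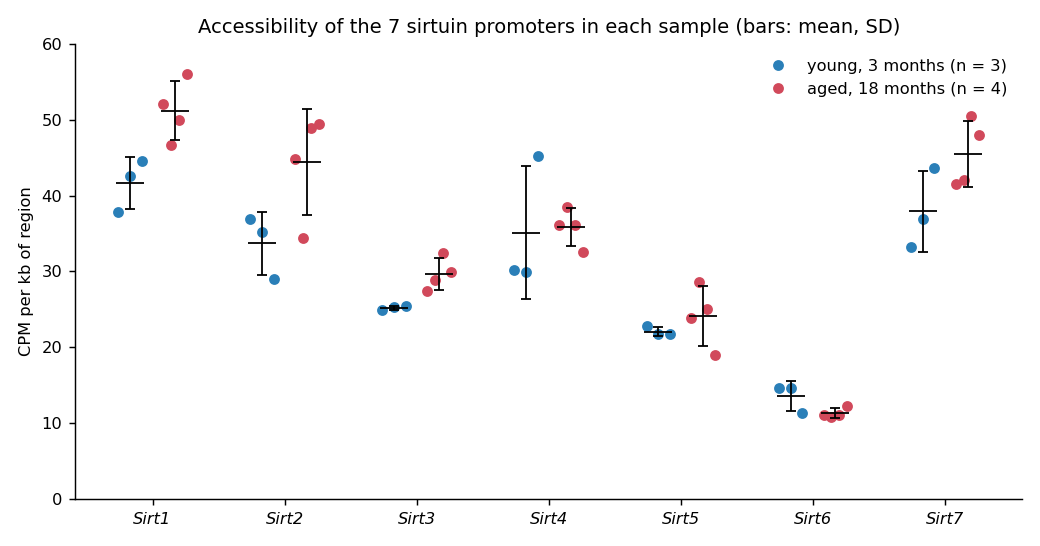
Accessibility of the most accessible promoter region of each sirtuin gene, in CPM per kb of region (vertical axis) for 3 young (blue) and 4 aged (red) samples, with mean and SD as bars. The aged points of Sirt1 and Sirt3 lie above all young points, while those of the other 5 genes overlap with the young points.

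None of the 8 sirtuin promoter regions passed the test for a difference between ages, against 6.54% of all promoter regions. DESeq2 called 0 of the 8 as well, against 12.2% of all promoter regions, and 3 had an unadjusted p under 0.05 in edgeR, all of them higher in aged samples, beside 32.1% of all promoter regions. The most accessible promoter region of each gene had a positive log2 fold change in 6 of 7 genes under TMM scaling, with a median of 0.23. The same choice of 1 region for each of 13018 protein-coding genes gave 66.7% positive and a median of 0.13, and the median over all 8 sirtuin promoter regions was 0.18, beside 0.09 for all promoter regions. This direction depended on the scaling: 5 of 7 were positive with a median of 0.11 when samples were scaled by total counts, which moved the median of all regions from -0.04 to -0.15, and 4 of 7 with a median of 0.02 when the trend with region strength was removed.

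SIRT1 deacetylates p53, FOXO proteins and PGC-1alpha. The Sirt1 promoter region (chr10:63338239-63339653, over the first exon) measured 53.6, 60.2 and 63.1 CPM in the young samples and 73.7, 66.1, 70.7 and 79.3 CPM in the aged samples. All aged samples were above all young samples, giving a log2 fold change of 0.30 (SE 0.11, adjusted p = 0.115). For a second Sirt1 promoter region, at the start of a long Sirt1 transcript and of Dnajc12, the difference on the log2 scale was 0.01 (SE 0.14, adjusted p = 0.974). With offsets for GC content, the first region passed (0.41, adjusted p = 0.0289), and with the strength trend removed its value was 0.04 (adjusted p = 0.905).

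SIRT2 deacetylates tubulin among other cytosolic proteins. The region over the Sirt2 and Nfkbib starts (chr7:28765862-28767126) measured 46.7, 44.5 and 36.7 CPM in young samples and 56.8, 43.5, 61.9 and 62.6 CPM in aged samples. Aged replicate 2 lay within the young range and the other 3 aged samples above it, with a log2 fold change of 0.39 (SE 0.14, adjusted p = 0.103). It passed without aged replicate 2 (0.49, adjusted p = 0.0417), with aged replicates 2 and 4 summed (0.42, adjusted p = 0.0452) and with GC offsets (0.46, adjusted p = 0.0345), and had 0.17 (adjusted p = 0.523) with the strength trend removed.

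SIRT7, which deacetylates histone H3 and acts on ribosomal RNA genes, has a promoter region (chr11:120624027-120625377) that also covers the microRNA gene Mir6936. It measured 44.8, 49.9 and 59.0 CPM in young and 56.1, 56.9, 68.2 and 64.8 CPM in aged samples. The groups overlapped, with a log2 fold change of 0.27 (SE 0.12, adjusted p = 0.206), or 0.02 with the strength trend removed.

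Sirt6 was the member whose promoter had a negative difference. Its region (chr10:81626734-81628201) measured 21.6, 21.5 and 16.6 CPM in young and 16.3, 15.9, 16.3 and 18.1 CPM in aged samples. Young replicate 3 lay among the aged samples, and the log2 fold change was -0.27 (SE 0.15, adjusted p = 0.299).

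Among the mitochondrial members, SIRT3 is the main deacetylase of the matrix, SIRT4 acts on glutamate dehydrogenase and other enzymes, and SIRT5 removes succinyl and malonyl groups. The region over the Sirt3 and Psmd13 starts (chr7:140879569-140882602) measured 75.6, 76.7 and 77.1 CPM in young and 83.0, 87.7, 98.3 and 90.7 CPM in aged samples. The aged samples were all higher, with a log2 fold change of 0.23 (SE 0.10, adjusted p = 0.188), or -0.07 with the strength trend removed.
The Sirt4 promoter region (chr5:115484112-115484951) measured 25.4, 25.1 and 38.0 CPM in young and 30.4, 32.4, 30.3 and 27.4 CPM in aged samples. Young replicate 3 was the highest sample and the other young samples were the lowest. The log2 fold change was 0.05 (SE 0.16, adjusted p = 0.883).
The Sirt5 promoter region (chr13:43365182-43366235) measured 24.0, 22.9 and 22.9 CPM in young and 25.1, 30.2, 26.4 and 20.0 CPM in aged samples. The young samples lay close together and the aged samples on either side of them, with a log2 fold change of 0.12 (SE 0.15, adjusted p = 0.665). It was 0.03 with the strength trend removed, 0.03 without aged replicate 2 and 0.23 without aged replicate 4.

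Of the 27 regions, 3 passed the test, all outside the sirtuin promoters, 1 higher and 2 lower in aged samples. Of all regions 5.74% passed, 2.44% higher and 3.3% lower, and DESeq2 also called 3 of the 27, with 8.43% of all regions passing. At an unadjusted p under 0.05 there were 8 of the 27, 6 of them higher, beside 24.6% of all regions. All aged samples were above all young samples in 6 of the 27 regions and below them in 2, beside 10.2% and 11.6% of all regions. The 6 were all among the 17 regions at a promoter of any gene, and 3153 of 15422 promoter regions of the series were higher in this way. The 2 lay at no promoter, where 5094 of 40258 regions of the series were lower in this way. The median log2 fold change of the 27 was 0.01, beside -0.04 for all regions. Its sign was not stable: it was -0.11 with total counts, -0.08 with the strength trend removed, and from -0.08 without young replicate 2 to 0.11 without young replicate 3.

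**Figure D2:**
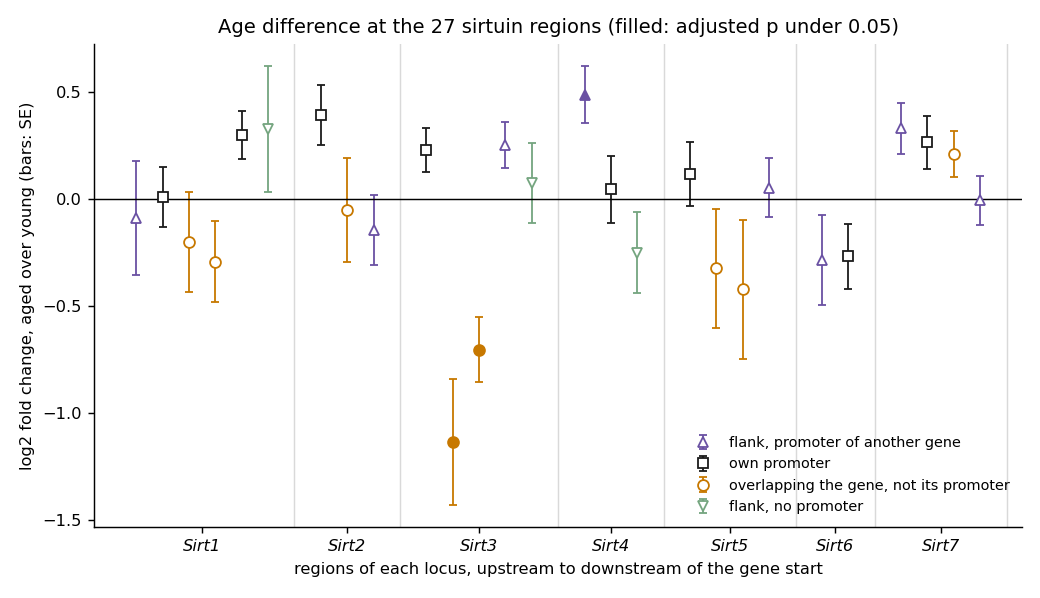
Log2 fold change of aged over young samples with SE (vertical axis) for the 27 regions of the 7 sirtuin loci, ordered from upstream to downstream of the gene start within each locus. Filled symbols mark the 3 regions that passed at an adjusted p under 0.05, an intronic and a 3′ end region of Sirt3 that were lower and the region upstream of Sirt4 that was higher.

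Both lower regions overlapped Sirt3. The first covers its 3′ end and reaches the end of the convergent gene Ric8a (chr7:140862295-140864521), with 856 of its 2227 bp inside the annotated Sirt3 gene and the rest beyond it. It measured 20.0, 22.3 and 21.7 CPM in young and 11.8, 12.6, 14.7 and 13.7 CPM in aged samples, from 63 to 590 counts. The groups did not overlap, with means of 21.3 ± 1.20 (SD, n = 3) and 13.2 ± 1.29 CPM (SD, n = 4), and the log2 fold change was -0.70 (SE 0.15, adjusted p = 0.0207, edgeR). The region also passed in DESeq2 (adjusted p = 0.00620), with GC offsets (-0.60, adjusted p = 0.0250) and with the trend with region strength removed (-0.72, adjusted p = 0.0392). Without aged replicate 1, aged replicate 3, young replicate 1 or young replicate 2 its adjusted p was 0.0710, 0.0510, 0.0713 and 0.0864, in that order, and its log2 fold change stayed between -0.82 and -0.60 under all 21 alternatives.

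The second lower region is intronic (chr7:140868871-140869407). It measured 6.39, 5.74 and 3.29 CPM in young and 2.11, 2.16, 2.57 and 2.80 CPM in aged samples, and all aged samples were lower. The log2 fold change was -1.13 (SE 0.29, adjusted p = 0.0395). It is a weak region, with 11 to 152 counts and a mean level at the 18.1th percentile. Its adjusted p was 0.172 with the strength trend removed (-0.85), and 0.112, 0.0618, 0.0922, 0.157 and 0.145 without aged replicates 1, 2 and 3 and young replicates 1 and 2, in that order. With aged replicates 1 and 2, 1 and 3, 2 and 3 or 3 and 4 summed, as if they came from the shared animal, it was 0.0637, 0.0806, 0.0632 and 0.0531. It is shown here because its centre holds the AP-1 letters TGANTCA, which 10.8% of all regions outside promoters hold in their central 300 bases. The 200 bases are chr7:140869040-140869239, plus strand, build GRCm38, with the match in capitals.
Sirt3 intron region: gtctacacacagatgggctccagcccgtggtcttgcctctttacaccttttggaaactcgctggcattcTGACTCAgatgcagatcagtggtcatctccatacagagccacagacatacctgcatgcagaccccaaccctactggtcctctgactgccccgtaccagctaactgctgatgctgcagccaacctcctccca

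The promoter of Sirt3, whose positive difference did not pass, was set against the 2 lower regions within the same samples. The log2 ratio of the 3′ region to the promoter region within each sample was -1.92, -1.78 and -1.83 in young and -2.81, -2.79, -2.73 and -2.72 in aged samples. That of the intronic region was -3.56, -3.73 and -4.52 in young and -5.27, -5.28, -5.20 and -4.99 in aged samples. Both sets were fully separate by age. These ratios use the same counts as the test above, and since each region alone was already separate by age, their separation adds no evidence. The downstream region at the Bet1l and Ric8a starts was higher in all aged samples (0.25, SE 0.11, adjusted p = 0.166). The sum over all 5 regions of the locus differed by 0.05 on the log2 scale (SE 0.08, adjusted p = 0.713), while the share of its counts in the promoter was 40.9% ± 0.666 in young (SD, n = 3) and 44.1% ± 0.783 in aged samples (SD, n = 4), higher in all aged samples. Sirt3 was not alone in this. The promoter share of Sirt2 was also higher in all aged samples (means 65.2% and 72.8%), and those of the other loci overlapped. The log2 ratio of an intronic Sirt1 region (chr10:63367276-63368458) to its promoter was also lower in all aged samples (means -2.24 and -2.85). Ratios of the remaining regions that overlapped sirtuin genes outside promoters were not separate by age.

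**Figure D3:**
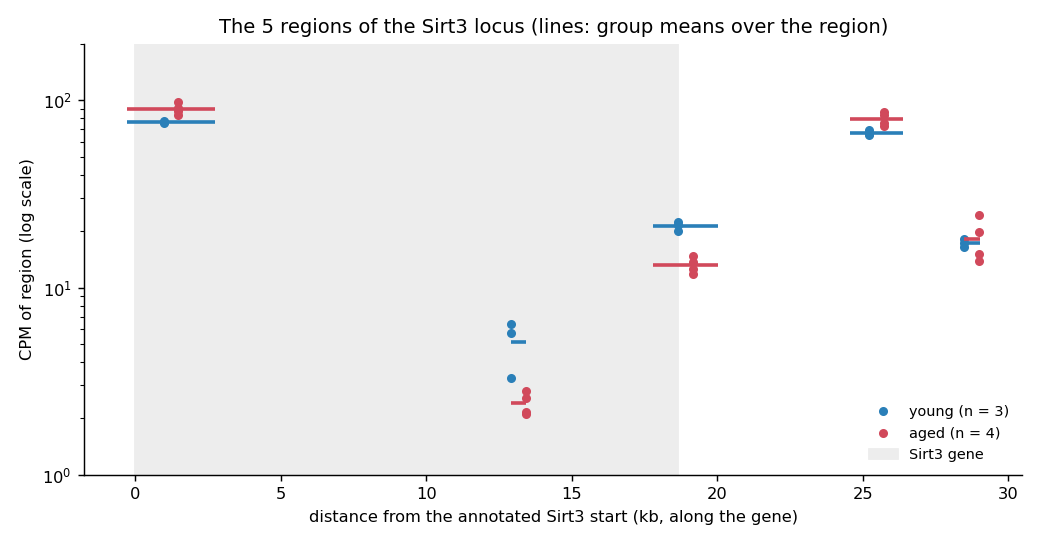
CPM (log scale) of the 5 regions of the Sirt3 locus in young (blue) and aged (red) samples against the distance of the region from the annotated gene start in kb, with horizontal lines for group means over the extent of each region and the gene shaded. The aged points lie below all young points at the intronic region and at the region over the 3′ end, and above them at the promoter.

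The region that was higher has its midpoint at -5705 bp from the Sirt4 start, upstream of the gene (chr5:115489215-115490789) and covers Gm24265 and Gm24407, both annotated as small nuclear RNA genes. They are 141 bases long each and differ at 2 positions. The region measured 50.4, 42.3 and 53.4 CPM in young and 60.4, 75.3, 77.5 and 60.3 CPM in aged samples. All aged samples were higher, and the log2 fold change was 0.49 (SE 0.13, adjusted p = 0.0446). It did not pass with 10 or more counts required in every sample (adjusted p = 0.0748), with total-count scaling (0.105) or with the strength trend removed (0.25, adjusted p = 0.406), nor without aged replicates 1, 2 and 3 (0.0734, 0.0753 and 0.128) or young replicates 1 and 2 (0.111 and 0.173). Summing aged replicates 1 and 2, 1 and 3, 2 and 3 or 3 and 4 also ended the call (0.0634, 0.0918, 0.0878 and 0.0630). The bases before Gm24407 are shown because they hold the octamer, which is known as part of the upstream control element of such genes and which 1.28% of all regions hold in their central 300 bases. The same stretch before Gm24265 does not hold it. The bases are chr5:115490024-115490253, plus strand, build GRCm38, with the octamer (ATTTGCAT) and an E-box in capitals.
Gm24407 upstream: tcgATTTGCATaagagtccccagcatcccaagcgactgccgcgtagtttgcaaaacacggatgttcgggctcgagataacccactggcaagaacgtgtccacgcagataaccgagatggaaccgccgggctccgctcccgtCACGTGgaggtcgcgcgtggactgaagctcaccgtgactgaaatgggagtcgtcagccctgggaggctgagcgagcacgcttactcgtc

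None of the other 16 regions outside sirtuin promoters passed. The upstream region of Sirt7 at the start of Mafg, a small MAF transcription factor gene, has the highest CPM of the 27, though not the highest CPM per kb (chr11:120629123-120633848). It measured 155, 158 and 146 CPM in young and 167, 178, 204 and 222 CPM in aged samples. The aged samples were all higher, with a log2 fold change of 0.33 (SE 0.12, adjusted p = 0.110), which passed with GC offsets (adjusted p = 0.0452) and was -0.08 with the strength trend removed. The region at the 3′ end of Sirt7, which holds the promoter of Pcyt2, was also higher in all aged samples (0.21, SE 0.11, adjusted p = 0.242).

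For the other members, the region outside sirtuin promoters with the smallest p was intronic in Sirt1 (chr10:63367276-63368458), with 11.5, 11.3 and 14.6 CPM in young and 10.6, 8.24, 9.81 and 11.3 CPM in aged samples. Its midpoint is at -28832 bp from the RefSeq Sirt1 start, so it lies upstream of that start, within a long transcript annotated by GENCODE. The groups overlapped (-0.29, SE 0.19, adjusted p = 0.362). In Sirt5 it was an intronic region of 8 to 75 counts (-0.42, SE 0.32, adjusted p = 0.453, or -0.03 with the strength trend removed and -0.69 without aged replicate 4). In Sirt2 it lay at the promoter of Rinl (-0.14, SE 0.17, adjusted p = 0.633, or -0.02 without young replicate 1 and -0.26 with total counts). In Sirt6 it lay at the promoter of Ankrd24 (-0.28, SE 0.21, adjusted p = 0.435). Samples of both ages overlapped in these 3 regions of Sirt5, Sirt2 and Sirt6.

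By position, 7 of the 8 regions that overlapped sirtuin genes outside their promoters had a negative log2 fold change, with a median of -0.31, beside 59.0% and a median of -0.09 for all regions outside promoters. The intronic Sirt1 regions among them lie upstream of the RefSeq Sirt1 start, within a long transcript annotated by GENCODE. Of the 17 regions at any gene's promoter, 12 had a positive one, with a median of 0.12, beside 61.1% and a median of 0.09 for all promoter regions. The region at Pcyt2, with 419 of its 3139 bp inside Sirt7, is in both sets. All regions of the series showed an order of this kind with region strength. The median log2 fold change was -0.42 in the weakest decile of all regions by mean log2 CPM and 0.28 in the strongest. Of the 7 leading sirtuin promoters, 4 were in the strongest decile, 1 in the next and 2 in the one after. The Sirt3 3′ region, at the 68.1th percentile, lay in a decile with a median of 0.003, and its log2 fold change was -0.70.

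**Figure D4:**
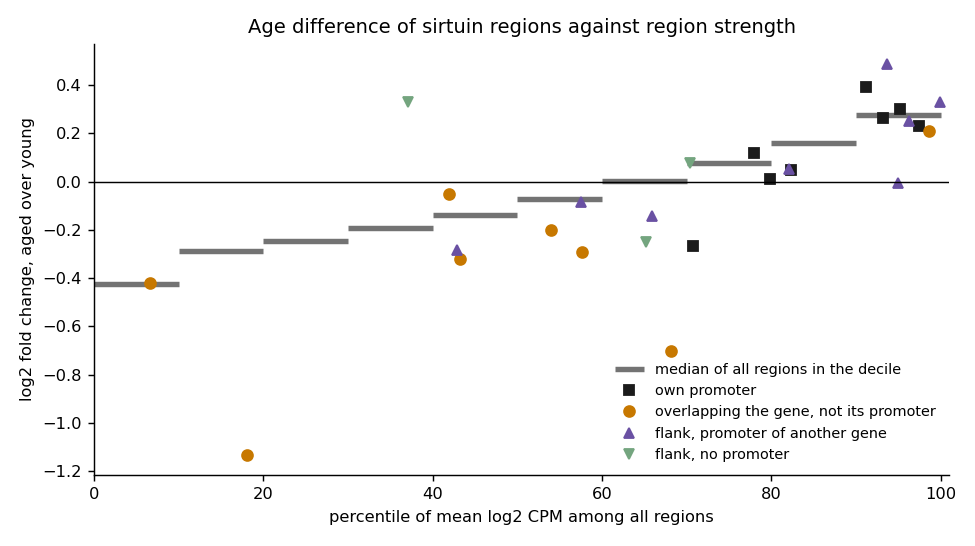
Log2 fold change of aged over young samples (vertical axis) for the 27 sirtuin regions against the percentile of their mean log2 CPM among all regions, with grey lines for the median of all regions in each decile. The grey lines rise from -0.42 to 0.28, and the largest distances from the line of their decile are those of the 2 lower Sirt3 regions (-0.85 and -0.71), of a region downstream of Sirt1 (0.52) and of the Sirt6 promoter (-0.34).

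Summed over all regions of a locus, 0 of the 7 sirtuin loci passed in edgeR, against 6.02% of 16231 protein-coding genes with a region in the same window. DESeq2 also called 0, with 11.7% of loci passing, and 1 had an unadjusted p under 0.05, beside 28.4% of all loci. This was Sirt6, which summed to 22.6, 22.7 and 18.4 CPM in young and 16.2, 17.1, 17.4 and 17.0 CPM in aged samples. Its aged samples were all lower, with a log2 fold change of -0.34 (SE 0.12, adjusted p = 0.0862). The other 6 loci ranged from -0.05 in Sirt5 to 0.18 in Sirt4.

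Promoters of genes that make NAD, use it, regulate sirtuins or encode their substrates were taken from 5 lists. Of 80 genes, 77 had a promoter region, and 6 of these passed as higher and 0 as lower in edgeR, against 5.02% and 1.49% of 13018 protein-coding genes. The median log2 fold change was 0.25, beside 0.13 for all these genes, and 65 of the 77 were positive, beside 66.7%. DESeq2 called 16 higher and 1 lower, against 11.9% and 1.6% of all these genes. Scaling by total counts gave 3 and 2 (1.67% and 2.97% of all), GC offsets 24 and 1 (16.8% and 1.89%), and removal of the strength trend 0 and 1 (0.108% and 0.476%), with a list median of -0.004. Leaving out aged replicate 1, 2 or 3 gave 1, 10 and 2 higher calls (0.161%, 6.66% and 0.315% of all), and leaving out young replicate 1, 2 or 3 gave 1, 0 and 3 (0.115%, 0.338% and 3.2%).

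NAD synthesis had 18 promoters with a median log2 fold change of 0.29, and none passed in edgeR, while DESeq2 called 3 (Haao, Tdo2 and Nmnat1), all higher. The smallest p in edgeR was that of Haao, an enzyme of the synthesis of NAD from tryptophan, with 76.1 ± 6.19 CPM in young (SD, n = 3) and 98.9 ± 5.59 CPM in aged samples (SD, n = 4), a log2 fold change of 0.38 (SE 0.11) and an adjusted p of 0.0546. Nampt, the rate-limiting enzyme of NAD salvage, had 0.37 (SE 0.14, adjusted p = 0.131). Of 10 promoters of genes that use NAD or clear nicotinamide, 2 rose: Aox1, an aldehyde oxidase that oxidises methylated nicotinamide (62.0 ± 3.15 to 91.0 ± 3.10 CPM, log2 fold change 0.55, adjusted p = 0.0130), and Nudt12, a hydrolase of NADH (0.42, adjusted p = 0.0452). Cd38, an NAD glycohydrolase, had -0.03 (SE 0.24) and Parp1, which consumes NAD at DNA breaks, had 0.04 (SE 0.13). Aox1 and Nudt12 were higher in all aged samples, which held for 3 of the 10 promoters and for 3130 of 13018 protein-coding promoters. DESeq2 called 3 in this list, Aox1, Nudt12 and Parp3, all higher.

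Of 11 promoters of sirtuin regulators, 1 rose. This was Stk11, which encodes the kinase LKB1 (0.49, SE 0.13, adjusted p = 0.0420). Setd7, a lysine methyltransferase, had the lowest value (-0.75, SE 0.22, adjusted p = 0.0626), and the median of this list was 0.08. DESeq2 called 4 in this list, Stk11, Usp22 and Dyrk1a higher and Setd7 lower (adjusted p = 0.0457). Of 18 promoters of nuclear substrates, 1 rose: Acss2, the acetyl-CoA synthetase that SIRT1 deacetylates, went from 94.8 ± 10.6 to 148 ± 8.03 CPM (SD, n = 3 and 4), a log2 fold change of 0.64 (SE 0.11, adjusted p = 0.0117). Of 20 promoters of genes whose products mitochondrial sirtuins act on, 2 rose: Pdha1, a pyruvate dehydrogenase subunit (28.7 ± 2.77 to 43.8 ± 1.52 CPM, 0.60, adjusted p = 0.0143), and Uox, urate oxidase, a peroxisomal enzyme (0.51, adjusted p = 0.0342). In this list Acss1, the mitochondrial relative of Acss2, had -0.67 (SE 0.25, adjusted p = 0.114). DESeq2 called 2 nuclear targets (Acss2 and Nr1h3) and 5 mitochondrial ones (Pdha1, Uox, Glud1, Cps1 and Dlat), all higher. All aged samples were higher at Stk11, Acss2, Pdha1 and Uox, as at 33 of the 77 list promoters and 3130 of 13018 protein-coding promoters. These genes were named because they passed on the same counts, so their separation adds no evidence.

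**Figure D5:**
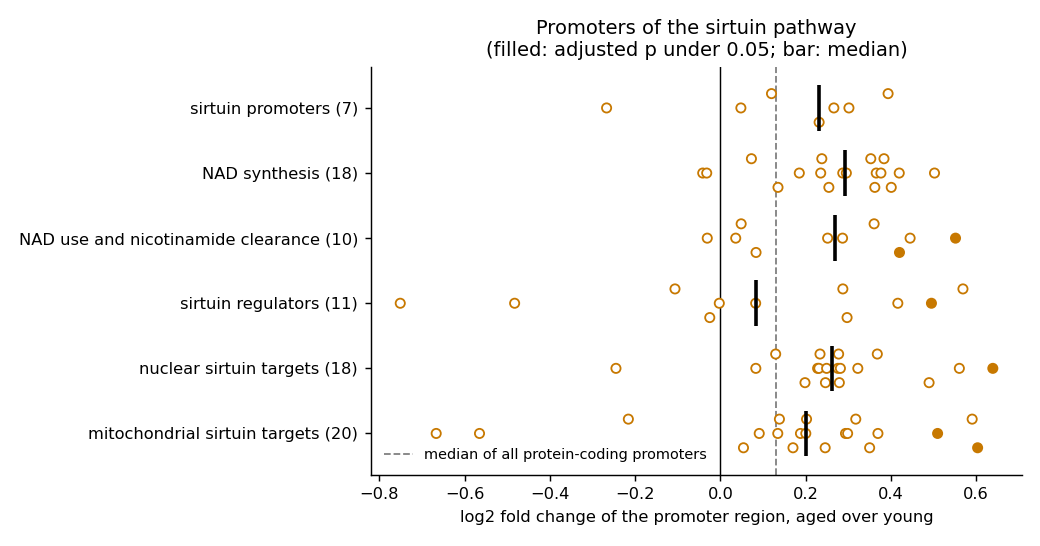
Log2 fold change of aged over young samples (horizontal axis) of the leading promoter of the 7 sirtuin genes and of each gene of the 5 pathway lists, with black bars for list medians, a dashed line for the median of all protein-coding promoters (0.13) and filled points for an adjusted p under 0.05. The 6 filled points are Aox1, Nudt12, Stk11, Acss2, Pdha1 and Uox, all to the right of 0.

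As a description of likeness, each sirtuin promoter was compared with 13695 promoter regions outside these loci by the Pearson correlation of log2 CPM over the 7 samples, which share their libraries and depth. The closest was the promoter of Ormdl1 and Pms1 for Sirt1 (0.992), of Brca1 and Nbr1 for Sirt2 (0.997), of Mcm10 for Sirt3 (0.992) and of Zfp617 and Zfp882 for Sirt4 (0.989). It was Miga2 for Sirt5 (0.984), Epop for Sirt6 (0.992) and Scarb2 for Sirt7 (0.984). A correlation over 0.9 was reached by 1202 promoters for Sirt2 but by 30 for Sirt5, and the other members had between 85 and 268.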

How the data were processed

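ATAC-seq was measured in 3 young and 4 aged liver samples. The authors deposited raw counts per region and sample, with no normalization: per the labels and the study's methods, reads were trimmed with cutadapt 1.13, aligned to GRCm38 with Bowtie2 2.4.1, filtered for quality, pairs and PCR duplicates, and counted with featureCounts over MACS2 2.2.7 peaks found in at least 2 samples. A peak had to be called to be counted, so closed promoters are missing, and the counts hold no molecular identifiers. All 7 columns were mapped by the sample descriptions.

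All regions were fitted with edgeR 4.0.16 in R 4.3.3 (TMM scaling, quasi-likelihood test on age alone, adjusted p under 0.05). CPM for log values used a prior count of 2, and within-sample ratios added 0.5 counts. The fit was tested on simulated data. Counts of samples of the same age differed by more than sampling noise (chi-square per degree of freedom 2.40 to 6.07). Genes came from GENCODE M21. Promoter sequences came from RefSeq (GRCm38.p6), where all 7 members matched. Near-identical copies (80% cover, 95% identity) were searched with minimap2. The 27 regions and the gene lists were chosen with earlier results of these data known. Named were each member's most accessible promoter region, regions that passed, the region outside promoters with the smallest p, and from each list the genes that passed, or the one with the smallest p. Nampt, Cd38, Parp1, Setd7 and Acss1, list genes called by DESeq2 alone, and the Sirt1 region at Dnajc12, the region at Bet1l and Ric8a and that at Pcyt2, were added after their values were seen. Alternatives were DESeq2 1.42.0, limma 3.58.1 (voom), total counts, loess offsets (span 0.3) on GC content and on region strength, 10 counts in every sample, filterByExpr, each sample left out, each of the 6 aged pairs summed, a replicate block, an adjusted p of 0.01, windows of 2 kb or the gene alone, and promoters of TSS ± 1000 bp or of protein-coding transcripts.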

Additional observations from a re-analysis of the deposited data

How the results depend on the processing

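The number of sirtuin regions that passed was 3. It was 1 with the strength trend removed, 6 with GC offsets, 0 at an adjusted p under 0.01, 1 with aged replicates 1 and 2, 1 and 3, 2 and 3, or 3 and 4 summed, and 0 to 3 with 1 sample left out, with 0 without aged replicate 1, aged replicate 3, young replicate 1 or young replicate 2. Over all 55680 regions these 4 fits called 188 to 651, in place of 3198 (5.74%), and with GC offsets 5622 (10.1%). With the strength trend removed 687 were called (1.23%). With aged replicates 1 and 2, 1 and 3, 2 and 3, or 3 and 4 summed, 4.24%, 1.73%, 3.24% and 3.87% of all regions were called. The number of promoter regions that passed was 0, against 2 with GC offsets, 1 with aged replicates 2 and 4 summed and 0 to 1 with 1 sample left out, with 1 without aged replicate 2. Of 13018 protein-coding promoters, 5.02% were higher and 1.49% lower in the main fit. These shares were 16.8% and 1.89% with GC offsets, 9.16% and 2.15% with aged replicates 2 and 4 summed, and 6.66% and 1.12% without aged replicate 2. The number of loci that passed was 0 under every alternative run. Of pathway promoters, 6 rose. This number was 3 with 10 counts in every sample or total counts, 16 with DESeq2, 24 with GC offsets, 11 with limma or with aged replicates 2 and 4 summed, 3 with 1 and 3, 2 and 3 or 3 and 4 summed, 0 with the strength trend removed or at 0.01, and 0 to 10 with 1 sample left out. The share of protein-coding promoters called higher was 1.43% with 10 counts in every sample and 9.2% with limma. It was 0.591%, 2.41% and 2% with aged replicates 1 and 3, 2 and 3 or 3 and 4 summed. Lower calls among pathway promoters numbered 0, but 1 with DESeq2, GC offsets, the strength trend removed, limma or aged replicates 1 and 4, 2 and 4 or 3 and 4 summed, 2 with total counts, and 0 to 2 with 1 sample left out. The share of protein-coding promoters called lower was 2.17% with limma and 1.63%, 2.15% and 1.18% with these pairs summed. The 18 regions given with a log2 fold change kept their direction under the alternatives run, with these exceptions. The value of the Sirt3 promoter was -0.067, that of the region at Mafg -0.078, at Bet1l and Ric8a -0.029 and at Pcyt2 -0.11 with the strength trend removed, and that of the Sirt4 promoter was -0.079 with the strength trend removed, -0.071 with total counts, and -0.062 to 0.26 with 1 sample left out, negative without young replicate 1 or 2. That of the Sirt1 region at Dnajc12, 0.01, was -0.030 with 10 counts in every sample, -0.097 with the strength trend removed, -0.013 and -0.021 with aged replicates 1 and 4 or 2 and 4 summed, -0.042 with a replicate block, -0.11 with total counts, and -0.090 to 0.095 with 1 sample left out. The GC, total-count and strength-trend alternatives use another scaling in place of TMM. The cause of the changes was not tested.

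Young and aged samples share replicate numbers 1 to 3. Deviations from the group means of samples with the same number correlated at -0.12, 0.06 and 0.03, and those of samples with different numbers at -0.13 to 0.10. Correlations from so few samples cannot decide whether the numbers pair the samples. With a replicate block, which leaves out aged replicate 4, 3 of the 27 sirtuin regions passed, beside 7.46% of all regions, and 0 promoter regions and 0 loci did. The median log2 fold change of the 27 was 0.03. Of the pathway promoters, 5 were higher and 1 lower, beside 3.98% and 2.23% of all protein-coding promoters. Depth limits the weak regions most, where the smallest sirtuin counts were 8 per sample.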
